A study of Mus musculus with 2 samples.

Results

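The genes Cxcl1, Cxcl2, Ccl2, Ccl7, Ccl20, Il6, Cx3cl1 and Cxcl16 encode chemokines and a cytokine of the inflammatory response, and their levels were followed through the cells of tumour-draining lymph nodes of mice. They are 8 of 25815 genes in the deposited tables. They were selected on their measured levels by endothelial class and genotype in these same data, so all levels and differences below are a description and none was tested. The study set inguinal nodes of wild-type (WT) mice, 13 pooled, against nodes of mice labelled ATG5LEC-KO, 9 pooled. That label names a loss of Atg5, a gene needed to build autophagosomes, in lymphatic endothelial cells (LECs). The nodes of both groups drained a tumour. The Cre driver, the tumour, the age and sex of the mice and the deleted exon are not given in the sources used here. Endothelial cells sorted as CD31+ CD45- Ter119- and immune cells sorted as CD45+ CD31- Ter119- were pooled for sequencing, so the balance between them was set by the pooling. There was 1 library per genotype, called WT and KO here, and no difference between them has a replicate check.

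Chemokines are small secreted proteins that guide leukocytes through G protein-coupled receptors. CXCL1 and CXCL2 draw neutrophils through CXCR2, CCL2 and CCL7 draw monocytes through CCR2, and CCL20 binds CCR6. CX3CL1 and CXCL16 are made as membrane-bound proteins that can be shed, and bind CX3CR1 and CXCR6. Interleukin 6 signals through IL6RA and gp130, the product of Il6st. Several of these genes are textbook targets of the transcription factor NF-kappaB, which tumour necrosis factor, interleukin 1 and Toll-like receptors activate. In the lymph node, LECs form the ceiling and the floor of the subcapsular sinus and line the medullary and paracortical sinuses. Blood endothelial cells (BECs) include the high endothelial venules (HEVs), through which lymphocytes enter.

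The stretches before the start sites of 4 of the genes are shown because each holds a match to the NF-kappaB consensus. The search covered both strands, from 250 bases before to 50 bases after the RefSeq start, of the 5 genes with an entry in the RefSeq promoter table (GRCm38.p6). Each stretch of 100 bases reads 5′ to 3′ on the plus strand and ends before the first annotated start, and capitals mark the match. Their positions are chr5:90891141-90891240 for Cxcl1, chr5:90903771-90903870 for Cxcl2, chr1:83116666-83116765 for Ccl20 and chr5:30013014-30013113 for Il6.
Cxcl1: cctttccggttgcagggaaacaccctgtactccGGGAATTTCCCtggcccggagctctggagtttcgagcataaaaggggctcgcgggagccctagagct
Cxcl2: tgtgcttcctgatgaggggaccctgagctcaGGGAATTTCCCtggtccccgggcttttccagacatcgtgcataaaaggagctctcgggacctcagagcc
Ccl20: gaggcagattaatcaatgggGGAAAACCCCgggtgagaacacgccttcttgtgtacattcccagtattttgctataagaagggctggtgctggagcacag
Il6: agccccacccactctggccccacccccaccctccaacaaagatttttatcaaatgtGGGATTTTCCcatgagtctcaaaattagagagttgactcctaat

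In Cxcl1 the capitals hold 2 overlapping matches, which begin 71 and 70 bases before the RefSeq start, and in Cxcl2 they begin 97 and 96 bases before it. Cxcl1 and Cxcl2 are neighbours on chromosome 5, and the longest run shared by their windows is the 14 bases GGGAATTTCCCTGG, which includes these matches. The Ccl20 match begins 80 bases and the Il6 match 44 bases before the start. Of all 32851 promoter windows, 4.51% held the consensus. The AP-1 motif TGANTCA was found in 7.81% of windows and in the Il6 window, 249 bases before the start, but not in the windows of Cxcl1, Cxcl2, Ccl20 or Cx3cl1. The Cx3cl1 window held neither motif. A match describes letters in a window and not a site that is bound.

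The libraries held 23649554 (WT) and 23089918 (KO) unique molecular identifiers (UMIs), and 3860 and 4153 cells with medians of 3512.5 and 3343 UMIs were clustered. A level is the UMI count of a gene over all cells of a class, per 1000000 UMIs of that class (CPM), leaving out genes of the mitochondrial genome. Intervals are exact 95% intervals that cover counting error only and take each UMI as independent. Classes carry the names of the marker genes they resemble, and the 8 genes were kept out of the markers and of the clustering. The LEC markers summed to 6461 CPM in WT LECs and 10339 CPM in KO LECs, against 117 and 201 CPM in BECs. Atg5 had 40.6 CPM in WT LECs and 44.3 CPM in KO LECs. Since counts taken near the 3′ end need not cover the deleted exon, this value checks nothing about the label. LECs made up 53.1% (50.4-55.8) of WT and 29.7% (26.4-33.2) of KO endothelial cells. Among them were 128 WT and 8 KO floor-like, 365 and 68 ceiling-like, and 91 and 99 medullary or paracortical-like cells. Mitochondrial UMIs were 7.24% of the total in WT LECs and 10.4% in KO LECs, and 10% and 10.1% in BECs. Their part in the results for LECs was not tested. The libraries shared 14 cell barcodes, of which 4 fell in the same class.

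Each gene had its own place among the classes. Nearly all Ccl20 lay in floor-like LECs and most Ccl7 in ceiling-like LECs. Ccl2 was spread over the LEC niches and myeloid cells, most Il6 and Cx3cl1 lay in BECs, and Cxcl16 lay mainly in LECs and dendritic cells. Cxcl1 was endothelial, with 0 UMIs in myeloid-like cells of both libraries, whereas its neighbour Cxcl2 was highest in neutrophil-like cells.

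**Figure D1:**
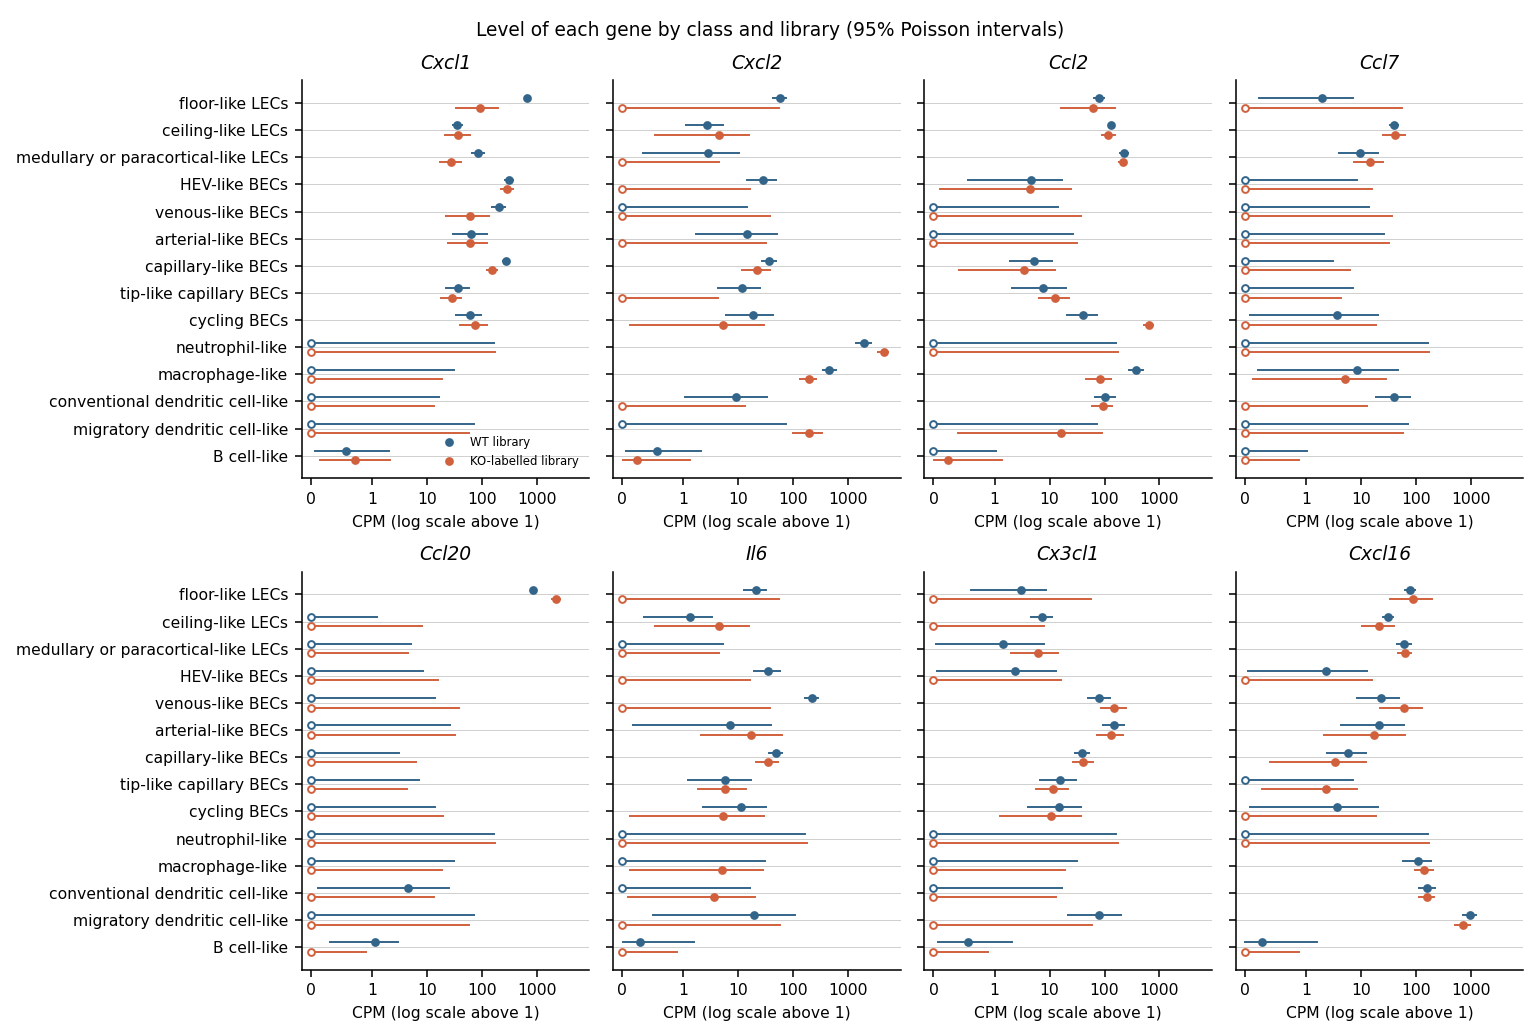
Level of each gene (CPM) by class, with both libraries side by side; points are levels over all cells of a class, lines are 95% Poisson intervals and open circles are counts of 0. Ccl20 stands out in floor-like LECs, at 856 CPM in WT and 2238 CPM in KO.

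Cxcl1 (chromosome 5, 90891241-90893115), which encodes a neutrophil attractant, was highest in floor-like LECs of the WT library. These 128 cells held 673 UMIs, or 666 CPM (617-719), and 58.6% of them had at least 1. HEV-like BECs had 314 CPM (264-372) and capillary-like BECs 271 CPM (242-302), neighbours in the order whose ratio had an interval that included 1. Venous-like BECs had 200.3 CPM (149.6-263), medullary or paracortical-like LECs 84.4 CPM (64.4-109) and ceiling-like LECs 35.7 CPM (29.3-43.1). The floor class itself was uneven: a sub-cluster of 21 WT cells led by Mt2, Mt1 and Cd14 had 1695 CPM (1484-1927), and the other 107 WT cells 505 CPM (459-555). No KO cell fell in the first. Among B cell-like cells, which should lack the gene, 0.148% in WT and 0.0637% in KO had a Cxcl1 UMI, at median depths of 2696 and 2692 UMIs.

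In KO the order began with HEV-like BECs, at 288 CPM (223-366), and capillary-like BECs, at 154 CPM (124-189). The 8 floor-like LECs held 6 UMIs, 3 in 1 cell and 1 in each of 3 others, or 90.7 CPM (33.3-197). The ratio of KO to WT was 0.136 (0.0498-0.298) in floor-like LECs and 1.04 (0.584-1.74) in the ceiling class. The ceiling ratio compared unlike mixes of sub-clusters, as one held 122 WT and 7 KO cells and another 90 and 0. The ratio of the medullary or paracortical-like class was 0.320 (0.187-0.529), but 2.17 when doublet calls were kept and the cells clustered anew, and the 2 sub-clusters did not go alike. One held 55 of the 60 WT UMIs in 44 cells and 0 UMIs in 9 KO cells. The other had 12.9 CPM (4.18-30) in 47 WT cells and 28.9 CPM (18.1-43.8) in 90 KO cells.

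Over all LECs, 854 WT and 48 KO UMIs gave 148 CPM (139-159) and 30.4 CPM (22.4-40.2), a ratio of 0.205 (0.150-0.274). With the floor-like cells left out the ratio was 0.727 (0.507-1.02), an interval that includes 1. BECs had 195 CPM (179.7-212) in WT and 85.4 CPM (74.7-97.3) in KO, a ratio of 0.438 (0.374-0.511). By BEC class the ratio was 0.916 (0.672-1.24) in HEV-like, 0.569 (0.445-0.721) in capillary-like and 0.303 (0.106-0.705) in venous-like cells. The venous value rested on few cells, with 26 of 52 WT UMIs and 5 of 6 KO UMIs in 1 cell each. In tip-like capillary BECs the log2 ratio of KO to WT was -0.40. The class mix also differed. Capillary-like cells were 46.5% of WT and 30.6% of KO BECs, and tip-like cells 13.4% and 26.1%. Cells that no marker list named were 9.34% and 22.3%. The part of this mix in the BEC ratio was not tested. Barcodes with at most 100 UMIs, which mostly hold free RNA, had 65.3 CPM of Cxcl1 in WT and 15.3 CPM in KO.

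Cxcl2 (chromosome 5, 90903871-90905938), which encodes another CXCR2 ligand, was highest in neutrophil-like cells. The 6 WT and 5 KO cells had 1913 CPM (1385-2577) and 4389.7 CPM (3543-5378), with 17 of 43 and 52 of 93 UMIs in 1 cell. Macrophage-like cells had 453 CPM (341-592) and 189.9 CPM (134-262), and single cells held 34 of 54 WT and 35 of 37 KO UMIs. The myeloid levels of Cxcl2 were thus set by a handful of cells. Among endothelial classes floor-like LECs were highest in WT, at 57.4 CPM (43.6-74.2), while the 8 KO cells held 0 UMIs, where 3 counts would be 45.4 CPM. BECs had 23.6 CPM (18.4-29.8) in WT and 6.43 CPM (3.74-10.3) in KO, a ratio of 0.273 (0.150-0.468). LECs had 73 and 2 UMIs, a ratio of 0.0997 (0.0119-0.373), and 58 of the WT UMIs were in floor-like cells.

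Ccl2 (chromosome 11, 82035571-82037453), which encodes a major monocyte attractant, was found in LECs far more than in BECs. LECs held 87.6% of the 823 WT and 51.7% of the 470 KO UMIs. Medullary or paracortical-like LECs had 225 CPM (192-263) in WT and 215 CPM (184-249) in KO, a ratio of 0.954 (0.766-1.19). Ceiling-like LECs had 132 CPM (119-146) and 118 CPM (88.5-154), a ratio of 0.892 (0.658-1.19), and floor-like LECs 80.2 CPM (63.7-99.7) and 60.5 CPM (16.5-155). The intervals of these 3 niche ratios included 1, and the ceiling ratio again compared unlike mixes of sub-clusters. Over all LECs the levels were 125 CPM (116-135) and 154 CPM (135-174), a ratio of 1.23 (1.06-1.42). That ratio was 0.854 with the KO niches weighted by their WT shares and 0.895 without the highest cell of each library. Without those cells the medullary or paracortical-like ratio was 0.663.

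BECs had 7.74 CPM (4.91-11.6) in WT and 56.0 CPM (47.3-65.7) in KO, but 118 of the 148 KO UMIs came from 1 cycling BEC. That cell had 12407 UMIs in all, among them 67 of BEC, 6 of LEC and 0 of macrophage markers. Without the highest cell of each library the BEC ratio of 7.23 was 2.81. Macrophage-like cells had 378 CPM (276-506) and 82.1 CPM (46.9-133), with 38 of 45 WT UMIs in 1 cell.

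Ccl7 (chromosome 11, 82045712-82047525), whose product also binds CCR2, was mostly a ceiling transcript. Ceiling-like LECs held 71.3% of the 171 WT and 52.8% of the 36 KO UMIs. Their levels were 40.3 CPM (33.5-48.1) and 41.5 CPM (25-64.7), a ratio of 1.03 (0.599-1.68), and 13.4% and 13.2% of cells had a UMI. The ceiling sub-clusters were filled unequally, and 62 of the 122 WT UMIs lay in one led by Angptl4 with 90 WT cells and 0 KO cells. Medullary or paracortical-like LECs had 9.85 CPM (3.96-20.3) and 14.7 CPM (7.61-25.7). WT conventional dendritic cell-like cells had 40.7 CPM (18.6-77.2), from 9 UMIs in 1 of 25 cells.

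**Figure D2:**
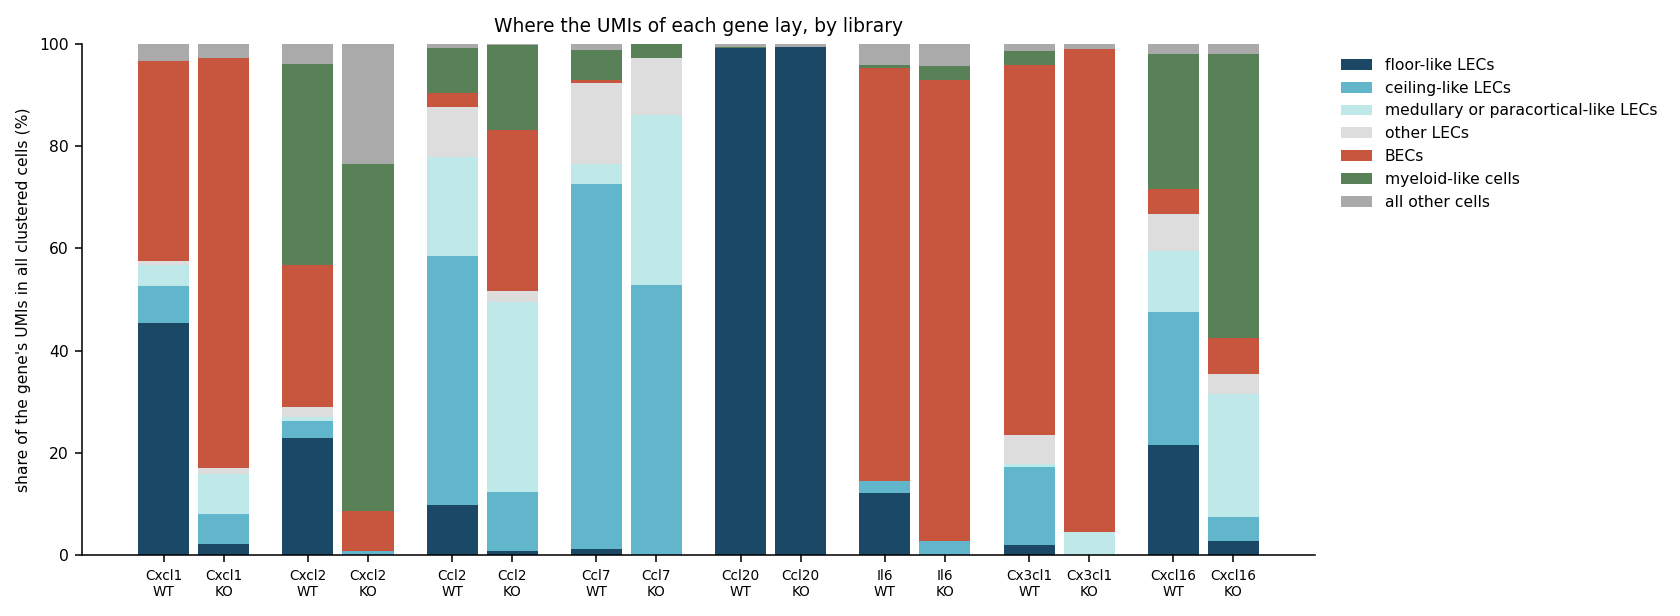
Share (%) of the UMIs of each gene that lay in each class, with WT and KO bars for each gene. The floor-like share of Cxcl1 was 45.4% in WT and 2.13% in KO, and that of Ccl20 99.2% and 99.3%.

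Ccl20 (chromosome 1, 83116766-83119167), which encodes the CCR6 ligand, was found in floor-like LECs and hardly elsewhere. These cells held 864 of 871 WT UMIs and 148 of 149 KO UMIs. The other LECs, 588 WT and 206 KO cells, held 0. In floor-like LECs the levels were 856 CPM (799-915) and 2238 CPM (1892-2629), a ratio of 2.62 (2.18-3.12). All the KO UMIs came from 2 of 8 cells, with 60 and 88 UMIs, and a UMI was found in 33.6% (25.5-42.5) of WT and 25% (3.19-65.1) of KO floor-like cells. Without the highest cell of each library the ratio was 1.27. With all KO UMIs in 2 cells, whether the level per floor-like cell differed cannot be told. Floor-like cells were 17.9% of WT and 3.74% of KO LECs. Over all LECs Ccl20 had 150.1 CPM (140.2-160.4) in WT and 93.6 CPM (79.1-109.9) in KO, a ratio of 0.624 (0.520-0.743). Floor-like LECs also held pericyte or smooth muscle markers, 413 CPM over 5 genes in WT and 620.0 CPM in KO, with Notch3, Acta2 and Cspg4 at 0 in both. Macrophage markers summed to 151 and 197 CPM over 6 genes, with C1qa, Csf1r and Adgre1 at 0 in both. The part of these markers in the floor values was not tested.

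Il6 (chromosome 5, 30013114-30019981) was mainly a BEC transcript, with 138 of 171 WT and 63 of 70 KO UMIs in BECs. WT venous-like BECs had 216 CPM (163-280.1), from 56 UMIs in 9 of 42 cells. A single cell with 12031 UMIs in all held 17 of the 56. The WT venous-like cell with 26 of the 52 Cxcl1 UMIs also had 12031 UMIs in all and the same marker sums. The 18 KO venous-like cells held 0 UMIs, a ratio of at most 0.141 with the count of 0 set to 3. In this class LEC markers summed to 96.3 CPM over 6 genes in WT, with Pdpn at 0, and 708 CPM in KO, with Reln at 0. Macrophage markers summed to 73.2 and 202 CPM over 6 genes, with C1qa, C1qb, Csf1r and Adgre1 at 0 in both. Their part in the venous values was not tested. Capillary-like BECs had 47.7 CPM (36.0-61.9) and 34.2 CPM (20.9-52.8), a ratio of 0.717 (0.408-1.21). HEV-like BECs had 15 WT UMIs, 13 of them in 1 cell, and 0 KO UMIs. Of the KO UMIs, 35 of 70 lay in BECs that no marker list named, 21 of them in a sub-cluster led by Cxcl9 and Cxcl10 with 57 KO cells and 1 WT cell. Over all BECs the levels were 46.5 CPM (39.0-54.9) and 23.8 CPM (18.3-30.5), a ratio of 0.513 (0.374-0.696). LECs held 25 and 2 UMIs, of which 21 were in WT floor-like cells.

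Cx3cl1 (chromosome 8, 94772009-94782427), which encodes the CX3CR1 ligand, was highest in arterial-like and venous-like BECs. Arterial-like BECs had 149 CPM (92.4-228) in WT and 130.2 CPM (72.9-215) in KO. Venous-like BECs had 80.9 CPM (50.1-124) and 152 CPM (84.9-250.3), a ratio of 1.88 (0.900-3.82), and the order of the pair did not exceed counting error in either library. Capillary-like BECs had 39.2 CPM (28.7-52.2) and 41.1 CPM (26.3-61.1). BECs as a whole had 35.3 CPM (28.9-42.8) and 39.3 CPM (32.1-47.6), a ratio of 1.1 (0.840-1.47). The Cxcl9-led sub-cluster of KO BECs had 95.6 CPM (67.3-132).

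Cxcl16 (chromosome 11, 70453983-70459984, minus strand), which encodes the CXCR6 ligand, was highest in migratory dendritic cell-like cells. The 8 WT and 14 KO cells of this class had 961 CPM (711-1271) and 714 CPM (521-956), with 23 of 49 WT and 12 of 45 KO UMIs in 1 cell each. Conventional dendritic cell-like cells had 163 CPM (114-225) and 159.8 CPM (117-214). The floor, ceiling and medullary niches each held the gene. The levels were 79.2 CPM (62.8-98.6) and 90.7 CPM (33.3-197) in floor-like LECs, 61.9 CPM (45.0-83.1) and 62.6 CPM (46.6-82.3) in medullary or paracortical-like LECs, and 31.7 CPM (25.7-38.7) and 21.8 CPM (10.5-40.1) in the ceiling class. Over all LECs the ratio was 1.1 (0.842-1.44), and BECs had 6.06 and 5.67 CPM.

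A gene was counted as different in a class where it had at least 20 UMIs over both libraries and its levels differed at least 2-fold. In LECs, 3 of the 8 genes were lower in KO, Cxcl1, Cxcl2 and Il6, and 0 higher, while 6.04% of all genes measured in LECs were lower and 4.25% higher. Because the genes were selected on this contrast, nothing is read from that difference. Ceiling-like LECs had 0 of 5 lower, against 6.66% of all genes, and 0 higher, against 4.94%. Medullary or paracortical-like LECs had 1 of 3 lower, Cxcl1, against 4.52%, and 0 higher, against 3.45%. Floor-like LECs had 1 of 6 lower, Cxcl1, against 10.9%, and 1 higher, Ccl20, against 9.83%. Of these genes Cxcl2 had 58 and Il6 21 WT UMIs, and both had 0 in the 8 KO cells. With a count of 0 set to 3, neither could be counted as lower there, so they are not shown to be unchanged. BECs had 2 of 6 lower, Cxcl1 and Cxcl2, against 3.11%, and 1 higher, Ccl2, against 2.08%. Venous-like BECs had 2 of 3 lower, Cxcl1 and Il6, against 11.1%, and 0 higher, against 6.32%. In capillary-like BECs 0 of 4 were lower, against 4.24%, or higher, against 3.33%. The 1 gene measured in HEV-like BECs and the 1 in tip-like capillary BECs, Cxcl1, was neither, against 7.59% lower and 3.7% higher in the first and 3.2% and 3.71% in the second. Myeloid-like cells had 0 of 3 lower, against 3.99%, and 0 higher, against 8.26%. The median log2 ratio of KO to WT was -0.79 over the 8 genes in LECs and -0.53 over 6 in BECs, against 0.03 and -0.02 over all genes measured there.

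**Figure D3:**
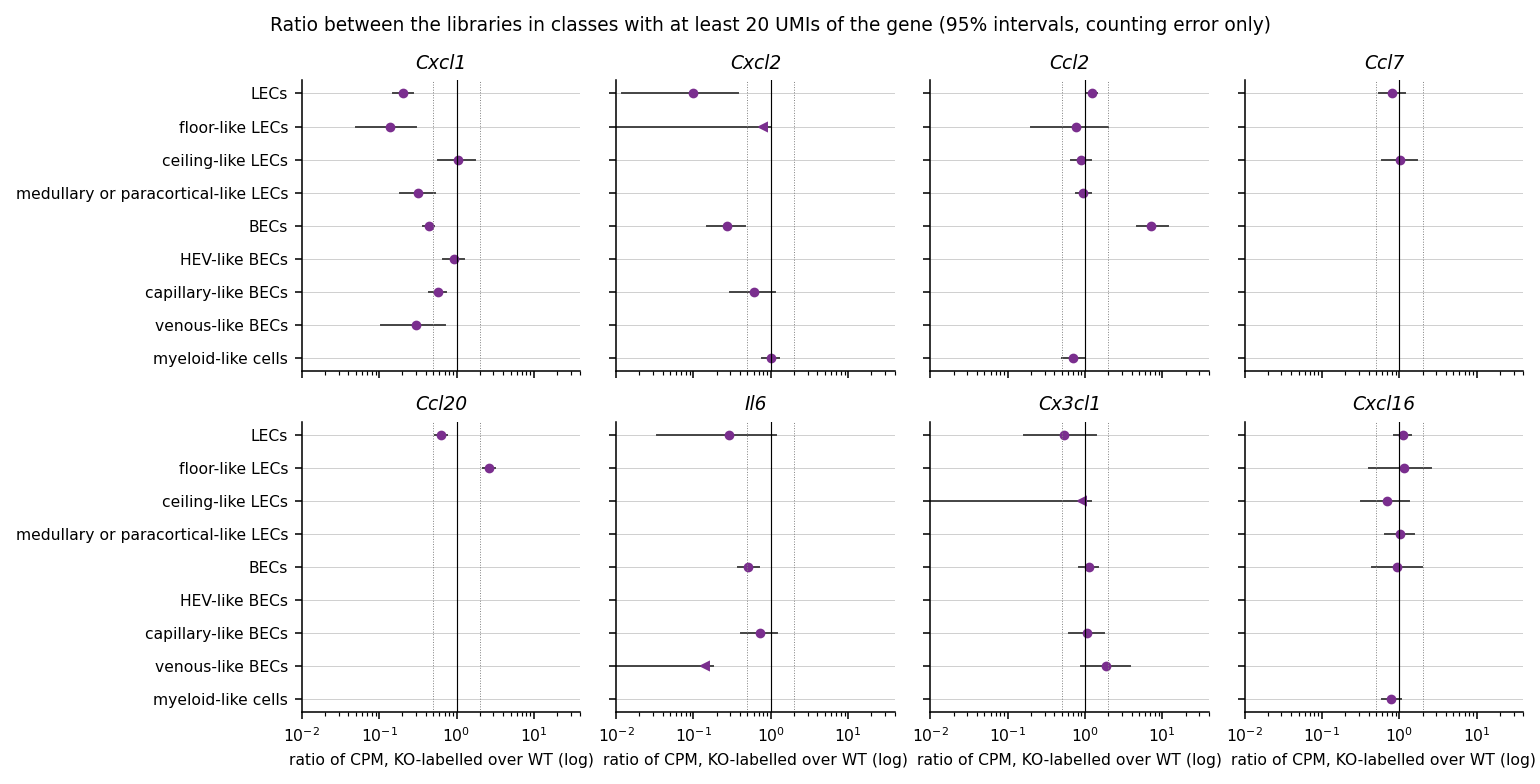
Ratio of the KO to the WT level (log axis) for each gene and class with at least 20 UMIs over both libraries; lines are 95% intervals for counting error, triangles are upper bounds where the KO count was 0 and dotted lines mark 2-fold. The Cxcl1 ratio was 0.136 in floor-like and 1.04 in ceiling-like LECs.

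Cells of both sexes were pooled in each library, in unequal shares. A cell was called female from UMIs of Xist or Tsix alone and male from UMIs of Ddx3y, Eif2s3y, Kdm5d or Uty alone, and cells with neither or both were not called. Among called cells, 70.8% of WT and 50.9% of KO LECs were male. The shares were 89.8% and 36.1% in HEV-like and 83.5% and 53.3% in capillary-like BECs. Some classes went the other way. Among them were venous-like BECs, with 38.7% in WT and 69.2% in KO, and arterial-like BECs, with 66.7% and 75%. LECs that no marker list named had 59.6% and 69.2%.

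For Ccl2 in LECs the direction of the difference turned with sex. Female LECs had 56.3 CPM in WT and 224 CPM in KO, a ratio of 3.98 (3.03-5.25). Male LECs had 164 CPM in WT and 84.3 CPM in KO, a ratio of 0.515 (0.386-0.676). In medullary or paracortical-like LECs the ratio was 3.32 (1.99-5.86) in 23 WT and 50 KO female cells, and 0.414 (0.279-0.60) in 54 and 31 male cells. One female KO cell of this class held 80 UMIs, which are 80 of the 133 female KO UMIs there and of the 153 in all female KO LECs. That cell had 24316 UMIs in all, among them 243 of LEC, 11 of fibroblast or reticular and 0 of macrophage markers. Fibroblast or reticular markers summed to 56.3 CPM over 6 genes in WT and 183 CPM in KO medullary or paracortical-like LECs, with Col1a1, Ccl19 and Lum at 0 in both. Their part in the Ccl2 values was not tested.

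Cxcl1 in BECs also differed by sex. Female BECs had 132 CPM in WT and 154 CPM in KO, a ratio of 1.17 (0.800-1.72), and male BECs 215 CPM in WT and 40.1 CPM in KO, a ratio of 0.187 (0.141-0.243). The 222 WT and 137 KO BECs without a call had a ratio of 0.902 (0.679-1.19). In HEV-like BECs it was 1.49 (0.754-3.21) in 6 and 23 female cells and 0.123 (0.0330-0.324) in 53 and 13 male cells. In LECs, by contrast, Cxcl1 was lower in KO in both sexes, with ratios of 0.364 (0.196-0.633) in female and 0.219 (0.140-0.327) in male cells. These ratios include the floor-like cells. Without floor-like cells the ratio over all LECs was 0.727 (0.507-1.02), and that value was not split by sex. Il6 in BECs had ratios of 0.368 (0.183-0.713) in female and 0.960 (0.614-1.5) in male cells. The part of the sex mix in the other results was not tested.

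**Figure D4:**
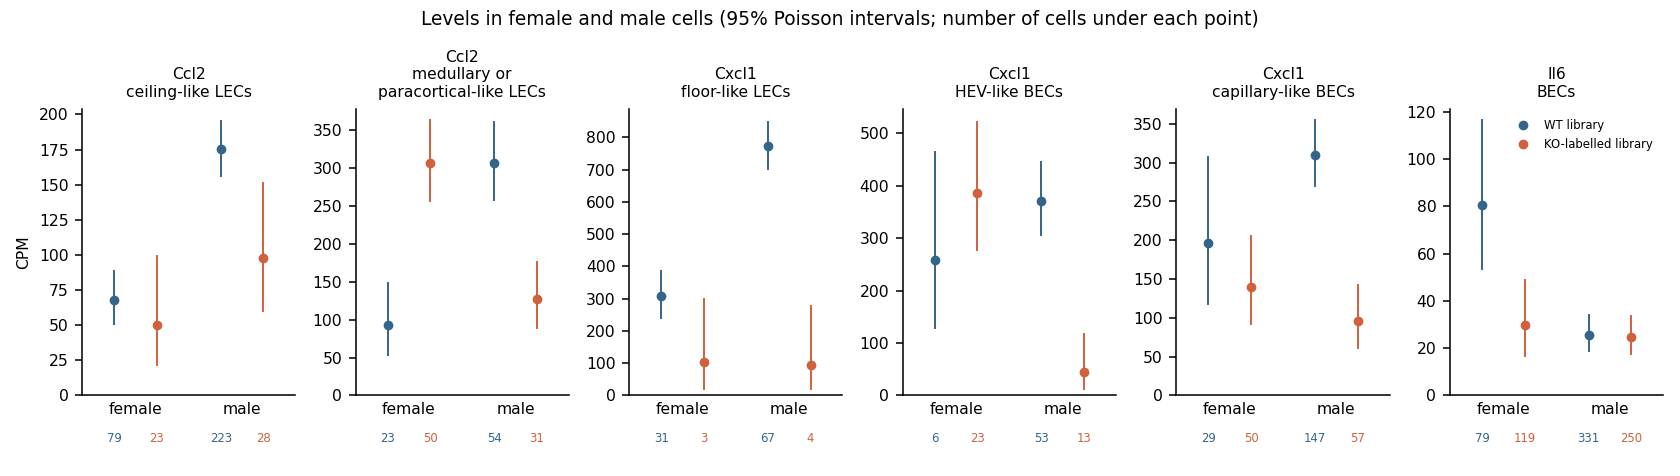
Levels (CPM) of Ccl2, Cxcl1 and Il6 in female and male cells of selected classes, both libraries; lines are 95% Poisson intervals and cell numbers stand at the points. Ccl2 in medullary or paracortical-like LECs had 92.4 CPM in WT and 306 CPM in KO in female cells, and 306 CPM in WT and 127 CPM in KO in male cells.

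Some of the genes shared cells. Each cell was thinned to 3000 UMIs, leaving out shallower ones, so that cells of different depth could be set side by side. Of 97 WT BECs with Cxcl1, 18.6% (11.4-27.7) also held Cxcl2, against 0.855% (0.177-2.48) of those without. Without thinning the shares were 16.6% (10.9-23.6) and 0.616% (0.127-1.79). In WT LECs, 13.1% (6.72-22.2) of 84 cells with Cxcl1 held Cxcl2, against 0.512% (0.106-1.49) of the others. In these WT cells Cxcl2 was found mainly where Cxcl1 was. In KO BECs 1 of 49 cells with Cxcl1, 2.04% (0.0517-10.9), held Cxcl2, against 2 of 334 of the others, intervals that overlap. In WT ceiling-like LECs 39.1% (19.7-61.5) of 23 cells with Ccl7 held Ccl2, against 9.54% (6.57-13.3) of the others. Within WT floor-like LECs 52.9% (35.1-70.2) of cells with Ccl20 and 40% (29.8-50.9) of those without held Cxcl1, and these intervals overlap.

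The genes with the most similar pattern were ranked by the Pearson correlation of log2(CPM + 1) over 38 sums of 1 class in 1 library, which share libraries and depth, so the values only describe. The highest were Bace2 (0.94), Grrp1 (0.92) and Clec14a (0.92) for Cxcl1, and Nfkbiz (0.57), Synpo2 (0.55) and Nfkbia (0.50) for Cxcl2. Nfkbia encodes an inhibitor of NF-kappaB and Nfkbiz a related protein. For Ccl2 they were Cd302 (0.82), Olfm1 (0.79) and Ltc4s (0.76), and for Ccl7 Slc6a9 (0.88), Rhou (0.87) and Gm11837 (0.85). Ccl20 was most like Nkx6-1 (0.95), Cpxm1 (0.93) and Nudt17 (0.87), Il6 most like Mamstr (0.82), Gstm2 (0.81) and Fmo2 (0.81), Cx3cl1 most like Tcf15 (0.88), Smad6 (0.87) and Cldn15 (0.85) and Cxcl16 most like Sulf2 (0.84), Fzd1 (0.84) and Anpep (0.84).

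The signalling receptors of the chemokines were highest in immune cells. Cxcr2 had 2581 CPM in WT and 2360.1 CPM in KO in neutrophil-like cells. Ccr2 had 3338 CPM in WT and 2634 CPM in KO in monocyte-like cells, of which WT had 1 and KO 9, and 2040.2 CPM in WT and 1447 CPM in KO in macrophage-like cells. A small T cell class led by Tcrg-C1, Cxcr6 and Trdc, which are gamma delta T cell genes apart from Cxcr6, stood out. There Cxcr6 had 1569 CPM in WT and 1417 CPM in KO, and Ccr6 194 CPM in WT and 170.1 CPM in KO. B cell-like cells had 127 CPM (116-139.8) of Ccr6 in WT and 119 CPM (108-129.6) in KO. Cx3cr1 had 789 CPM in WT and 488 CPM in KO in macrophage-like cells. Il6ra was highest in monocyte-like cells, with 715 CPM in WT and 575 CPM in KO. Il6st, the partner subunit, was instead highest in endothelium, with 1136 CPM in WT and 1568 CPM in KO in venous-like BECs and 1228 CPM in WT and 1178 CPM in KO in medullary or paracortical-like LECs.

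Atypical receptors, which take up chemokines without the usual signalling, lay on different endothelia. Ackr1, which binds inflammatory chemokines of both main families, had 358 CPM in WT and 637 CPM in KO in HEV-like and 574 CPM in WT and 556 CPM in KO in venous-like BECs. Ackr2, a scavenger of inflammatory CC chemokines, had 222 CPM in WT and 222 CPM in KO in medullary or paracortical-like LECs. Its ratio was 1.53 (1.33-1.76) over all LECs and 3.27 (1.1-8.05) in floor-like LECs, the latter from 28 WT and 6 KO UMIs. Ackr3, which takes up CXCL12, had 488 CPM in WT and 153 CPM in KO in LECs, a ratio of 0.314 (0.274-0.358). Its ratio was 0.509 (0.435-0.592) in ceiling-like LECs and 2.88 (2.07-4.01) in venous-like BECs. In venous-like BECs LEC markers summed to 96.3 CPM in WT and 708 CPM in KO over 6 genes, with Pdpn at 0 in WT and Reln at 0 in KO. Their part in the venous Ackr3 value was not tested. Ackr4, a scavenger of CCL19 and CCL21, had 2522 CPM in WT and 1737 CPM in KO in ceiling-like LECs. Of the 4 genes 3 were lower in LECs by the count above, Ackr1, Ackr3 and Ackr4, with a median log2 ratio of -1.50, against 6.04% of all genes and 0.03. Ackr1 had 39 WT and 4 KO UMIs there, and its interval (0.0969-1.03) included 1. In ceiling-like LECs 0 of 3 were lower, against 6.66%. In medullary or paracortical-like LECs 2 of 3 were, Ackr3 and Ackr4, against 4.52%. Ceiling-like cells were 51.0% of WT and 31.8% of KO LECs. Ackr1 is also a marker that named venous-like BECs, and Ackr3 and Ackr4 are markers that named ceiling-like LECs, so their place there is no result.

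**Figure D5:**
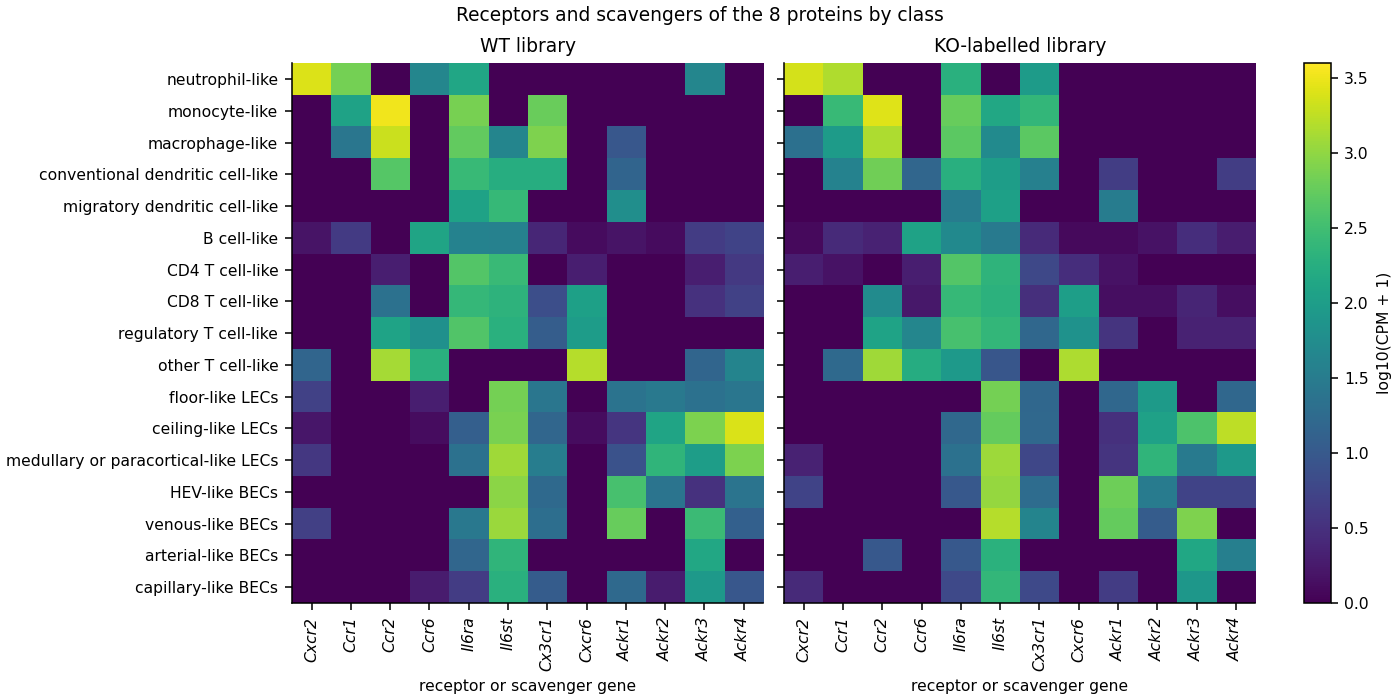
Level of receptor and scavenger genes by class in both libraries, with colour as log10(CPM + 1). Cxcr2 is brightest in neutrophil-like cells, at 2581 CPM in WT and 2360.1 CPM in KO.

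Genes that act upstream of the ligands were described by lists, by the same count. Over all genes measured, 6.04% were lower and 4.25% higher in LECs and 3.11% and 2.08% in BECs, with median log2 ratios of 0.03 and -0.02, and the counts of every list below stand beside these shares. In ceiling-like LECs the shares were 6.66% and 4.94%, in medullary or paracortical-like LECs 4.52% and 3.45%, and in venous-like BECs 11.1% and 6.32%. Of 20 NF-kappaB subunits and regulators measured in LECs, 5 were lower in KO (Rela, Nfkbid, Nfkbiz, Birc3 and Ikbkg, named after their values were seen) and 0 higher, with a median log2 ratio of -0.52. Nfkbia had 709.8 CPM in WT and 408 CPM in KO, a ratio of 0.575 (0.528-0.625), and Nfkb1, which encodes a subunit, 1.09 (0.958-1.24). In ceiling-like LECs 5 of 20 were lower and 0 higher, with a median of -0.38. Nfkbia there had 665 CPM in WT and 661 CPM in KO. The list's median was -0.34 in BECs, with 1 of 20 lower, and 0.16 in capillary-like BECs. Immediate early genes, which respond to stimulation and to tissue dissociation, were lower for 16 of 23 in LECs and 17 of 23 in ceiling-like LECs, with medians of -1.21 and -1.24. The ceiling sub-clusters were filled unequally here too. One whose leading genes include Nr4a1, Egr1 and Atf3 held 122 WT and 7 KO cells, and the Angptl4-led one 90 and 0. In floor-like LECs, with 8 KO cells, 17 of 20 were lower and 0 higher, with a median of -2.265. Of all genes measured there, 10.9% were lower and 9.83% higher. In medullary or paracortical-like LECs 2 of 21 were lower and 1 higher, with a median of -0.47. In venous-like BECs 1 of 20 was lower and 3 higher, with a median of 0.35. In BECs 4 of 23 were lower, with a median of -0.61. Fos had 3547 CPM in WT and 1525 CPM in KO in LECs, and 1483 CPM in WT and 1126 CPM in KO in BECs. The part of this list's difference in the levels of the ligand genes was not tested.

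Of 13 receptors upstream of the ligands 1 was lower in LECs, Il1r1, and the median was 0.03. In BECs Il1r1, an interleukin 1 receptor, had 205 CPM in WT and 127 CPM in KO, a ratio of 0.620 (0.541-0.709). By class the ratio was 0.899 (0.712-1.13) in capillary-like, 0.85 (0.634-1.13) in HEV-like, 1.04 (0.613-1.71) in venous-like and 0.705 (0.417-1.20) in tip-like capillary BECs, and these intervals included 1. Of 11 mRNA stability factors 3 were lower in LECs, Zfp36, Zc3h12a and Arid5a, where 6.04% of all genes were. In medullary or paracortical-like LECs 0 of 10 were, with a median log2 ratio of 0.11. Zfp36, whose product destabilises many cytokine mRNAs, had 2349 CPM in WT and 766 CPM in KO in LECs. Of 5 genes tied to the shedding of CX3CL1 and CXCL16 1 was lower in LECs, Rhbdf2. The protease gene Adam10 had a ratio there of 1.19 (1.09-1.29) and Adam17 one of 1.23 (1.05-1.45). Of 10 IL-6 signalling genes 2 were lower in LECs, Socs3 and Lif, and 0 of 9 in BECs. Among other chemokines Cxcl9, an interferon-induced CXCR3 ligand, had 299.9 CPM in WT and 2326 CPM in KO over all BECs, a ratio of 7.75 (7.23-8.33), but the classes went different ways. Its ratio was 0.143 (0.0894-0.218) in capillary-like BECs, at most 0.0423 in HEV-like BECs, 2.02 (1.68-2.44) in tip-like capillary BECs and 0.299 (0.191-0.451) in LECs. The BEC sub-cluster that Cxcl9 led held 57 KO cells and 1 WT cell. Cxcl12 had a ratio of 0.443 (0.412-0.477) over all BECs and a ratio nearer 1 in these 4 classes, with 0.736 (0.670-0.806) in capillary-like, 0.601 (0.414-0.856) in HEV-like, 0.584 (0.144-1.77) in venous-like and 0.971 (0.690-1.38) in tip-like capillary BECs. Capillary-like cells were 46.5% of WT and 30.6% of KO BECs, and tip-like cells 13.4% and 26.1%.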

How the data were processed

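Single cells of pooled, sorted lymph node cells were sequenced, with 1 library per genotype. Per the file headers, the authors used the BD Rhapsody WTA Analysis Pipeline and deposited whole-number counts per barcode and gene. The error-corrected molecule counts were used here. The gene model was mm10, per the submitters' processing notes. Barcodes were called as cells in each library from its UMI rank curve, giving 4082 WT and 4387 KO cells with at least 1235 and 1223 UMIs. Cells over 25% mitochondrial UMIs or under 200 genes were left out, and doublet calls removed 26 and 34 cells. Cells were clustered with scanpy 1.11.5 (Leiden, 2000 variable genes, 30 components), and naming thresholds were set after clusters were seen. The members and lists were chosen with earlier results of these data known. Intervals are exact: Poisson for levels, Clopper-Pearson for shares and conditional binomial for ratios. A count of 0 was set to 3 in a ratio, which is then a bound. The calls were tested on simulated counts with planted changes of more than 2-fold. Those counts took UMIs as independent, so the test does not cover UMIs gathered in single cells. With 1 library per genotype no p-value is given. The genes named are the 8 members, receptors by their highest class, of each other list at most 4 with the most UMIs, and the 3 most similar genes. Exceptions, among them members counted as lower, were named after their values were seen.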

Additional observations from a re-analysis of the deposited data

Results flagged for a closer look

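These ratios of KO to WT stood apart because a gene went one way in one class or sex and the other way in another. The differences between classes and between sexes were not tested, and each ratio compares 2 libraries. The Ccl2 ratio was 1.23 (1.06-1.42) in LECs, 7.23 (4.64-11.8) in BECs and 15.5 (8.34-31.8) in cycling BECs, where 1 cell held 118 of 121 KO UMIs. It was 0.7 (0.502-0.977) in myeloid-like cells and 0.217 (0.115-0.392) in macrophage-like cells. By sex, Ccl2 had ratios of 3.98 (3.03-5.25) in female and 0.515 (0.386-0.676) in male LECs, and 1 cell held 80 of the 153 female KO UMIs. Within medullary or paracortical-like LECs they were 3.32 (1.99-5.86) in female and 0.414 (0.279-0.6) in male cells.

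Ccl20 had a ratio of 2.62 (2.18-3.12) in floor-like LECs, from 2 KO cells, and 0.624 (0.52-0.743) over all LECs. Cxcl2 had 2.29 (1.58-3.37) in neutrophil-like and 24.2 (4.06-981) in regulatory T cell-like cells, the latter from 1 WT and 35 KO UMIs with 17 in 1 cell. It had 0.0997 (0.0119-0.373) in LECs, 0.273 (0.15-0.468) in BECs and 0.419 (0.268-0.648) in macrophage-like cells.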

How the results depend on the processing

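No paired analysis was possible because each genotype has 1 library and the labels give no shared replicate numbers. Over 19 alternatives, 3 of them chosen after seeing the data, 426 of 506 single-gene ratios moved by less than their counting interval, 76 moved further and 4 that were counted turned direction. Counted as different or not, 63 values had the other sign from the reported one, among them Ccl2 in LECs at ratios of 0.854 with KO niches at their WT shares and 0.895 without the highest cell. The cause was not tested in any case. As log2 ratios of KO to WT, the turned values were Il6 in LECs at 1.724 averaged over ceiling-like and medullary classes and 0.6474 without floor-like cells, both from 6 UMIs, Cxcl1 in medullary or paracortical-like LECs at 1.119 with doublet calls kept, and Cxcl1 in BECs at 0.2213 in female cells.

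The number of the 8 genes counted as lower in LECs, 3, was 1 in female cells, 0 averaged over ceiling-like and medullary classes and 0 without floor-like cells. The number higher, 0, was 2 in female cells and 1 with KO niches at their WT shares. In ceiling-like LECs the 0 lower became 1 in male cells and 1 in female cells, and the 0 higher became 1 at a minimum of 5 UMIs and 1 without sub-clusters of under 10 KO cells. In medullary or paracortical-like LECs the 1 lower became 0 with doublet calls kept and 0 in female cells, and the 0 higher became 1 at 5 UMIs, 1 with doublet calls kept and 1 in female cells. In BECs the 2 lower became 1 at 10% mitochondrial UMIs or less, 1 by the mean of single cells and 1 in female cells, and the 1 higher became 0 in female cells. In capillary-like BECs the 0 lower became 2 with doublet calls kept, 2 with the members among the variable genes, 1 without the highest cell and 2 in male cells. In myeloid-like cells the 0 lower became 1 at 5 UMIs and 1 in male cells, and the 0 higher 1 in female cells. 165 of 190 counts stayed within 1.5 times.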
